A study of Mus musculus with 3 samples.

Results

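The glutathione transferases (GST), UDP-glucuronosyltransferases (UGT) and sulfotransferases (SULT) are the main conjugating enzymes of drug metabolism. Their genes were chosen by symbol alone, as every gene of the Gsta, Gstk, Gstm, Gsto, Gstp, Gstt, Gstz, Mgst, Ugt1a, Ugt2a, Ugt2b, Ugt3a and Sult families on the array. This gave 56 of 30921 genes: 25 GST genes (the microsomal MGST genes included), 12 UGT genes and 19 SULT genes. The data are 3 MoGene-2_0-st arrays of liver RNA from ICR mice, an outbred stock, aged 10 weeks. The EEC+TMA group was given Ecklonia cava ethanol extract (EEC, from a brown alga) by mouth for 2 weeks and trimethylamine (TMA) for 24 hours, the TMA group was given distilled water for 2 weeks and TMA, and the no treatment group was given neither. Each group has 1 array, so there was no replicate and no test, and every difference below is one between arrays. The sources used here do not give the sex of the mice, the dose of either agent, the route of TMA or whether animals were pooled.

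These enzymes attach a large polar group to a foreign or internal compound so that it can leave the cell. Glutathione transferases join electrophiles to glutathione, UDP-glucuronosyltransferases add a sugar acid from UDP-glucuronate to steroids, bilirubin, bile acids and drugs, and sulfotransferases add sulfate from the donor PAPS. The liver is the chief site of all 3 reactions, and many of the genes lie in tandem arrays of close relatives, several of them targets of the oxidant sensor NRF2 or of the drug-sensing nuclear receptors.

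All values are log2 levels as deposited, and a gene counted as measured where it reached the 95th percentile of 1541 chemosensory receptor probe sets on that array (3.16 for EEC+TMA, 3.25 for TMA and 3.15 for no treatment). By that level 36 of the 56 genes were measured on all 3 arrays and 20 on none, with no gene in between. The measured genes were 21 of 25 GST, 9 of 12 UGT and 6 of 19 SULT genes. Below background were Gsta2, Gsto2, Gstt4 and Mgst2 among GST genes, Ugt2a2, Ugt2b37 and Ugt2b38 among UGT genes, and Sult1c1, Sult1e1, Sult2a1 to Sult2a7, Sult2b1, Sult3a1, Sult4a1 and Sult6b1 among SULT genes. Each gene was read by 1 probe set, and 49 of the 56 probe sets are marked as unique to their transcript. The other 7 (Gsta1, Gstm2-ps1, Gstp2, Sult2a1, Sult2a2, Sult2a3 and Sult2a4) also match other transcripts. Levels of different genes come from different probes and are not set against each other.

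The array design reads the Ugt1a locus (chromosome 1, 88055388 to 88220002) as a single gene under the symbol Ugt1a2, so the individual Ugt1a isoforms, among them the bilirubin-conjugating one, were not separated. Coordinates are those of the files, and the sources used here do not name their build. All 56 genes overlapped the locus of the same Entrez identifier in RefSeq assembly GRCm38.p6.

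The promoters of the UGT2B genes are shown because those genes held the largest differences on the TMA array. They are from RefSeq (GRCm38.p6, chromosome 5), 5′ to 3′ along the gene's strand, and run from 80 bases before the start site to the last base before it. Capitals mark the stretch of 24 bases that is identical in Ugt2b5 (chr5:87140341-87140420, minus strand) and Ugt2b36 (chr5:87092556-87092635, minus strand), and the window in Ugt2b35 (chr5:87000780-87000859, plus strand) that matches it best.
Ugt2b5: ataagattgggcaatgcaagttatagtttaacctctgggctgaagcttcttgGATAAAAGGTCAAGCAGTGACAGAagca
Ugt2b36: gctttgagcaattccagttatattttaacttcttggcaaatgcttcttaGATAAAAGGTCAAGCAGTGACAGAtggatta
Ugt2b35: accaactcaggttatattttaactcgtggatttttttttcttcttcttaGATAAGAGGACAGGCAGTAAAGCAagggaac
Ugt2b34: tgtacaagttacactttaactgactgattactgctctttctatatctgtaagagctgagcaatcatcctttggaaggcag
Ugt2b1: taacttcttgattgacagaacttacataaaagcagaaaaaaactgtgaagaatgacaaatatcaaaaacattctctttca
The run of 24 bases begins at -28 in Ugt2b5 and at -31 in Ugt2b36, counted from the start site. Among the 32851 promoters of the table, 3 hold it on either strand, those of Ugt2b5, Ugt2b36 and Ugt2b37. The best ungapped window of Ugt2b35 also begins at -31 and matches 17 of the 24 bases, a number that 0.377% of all promoters reach. In Ugt2b1 and Ugt2b34 the best window in the promoter matched 15 and 13 bases, which 8.23% and 71.4% of all promoters reach, and began at -238 and -248, outside the stretch shown. The comparison was chosen after the values were seen, and a shared stretch is a description of related genes, not a site of any factor.

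**Figure D1:**
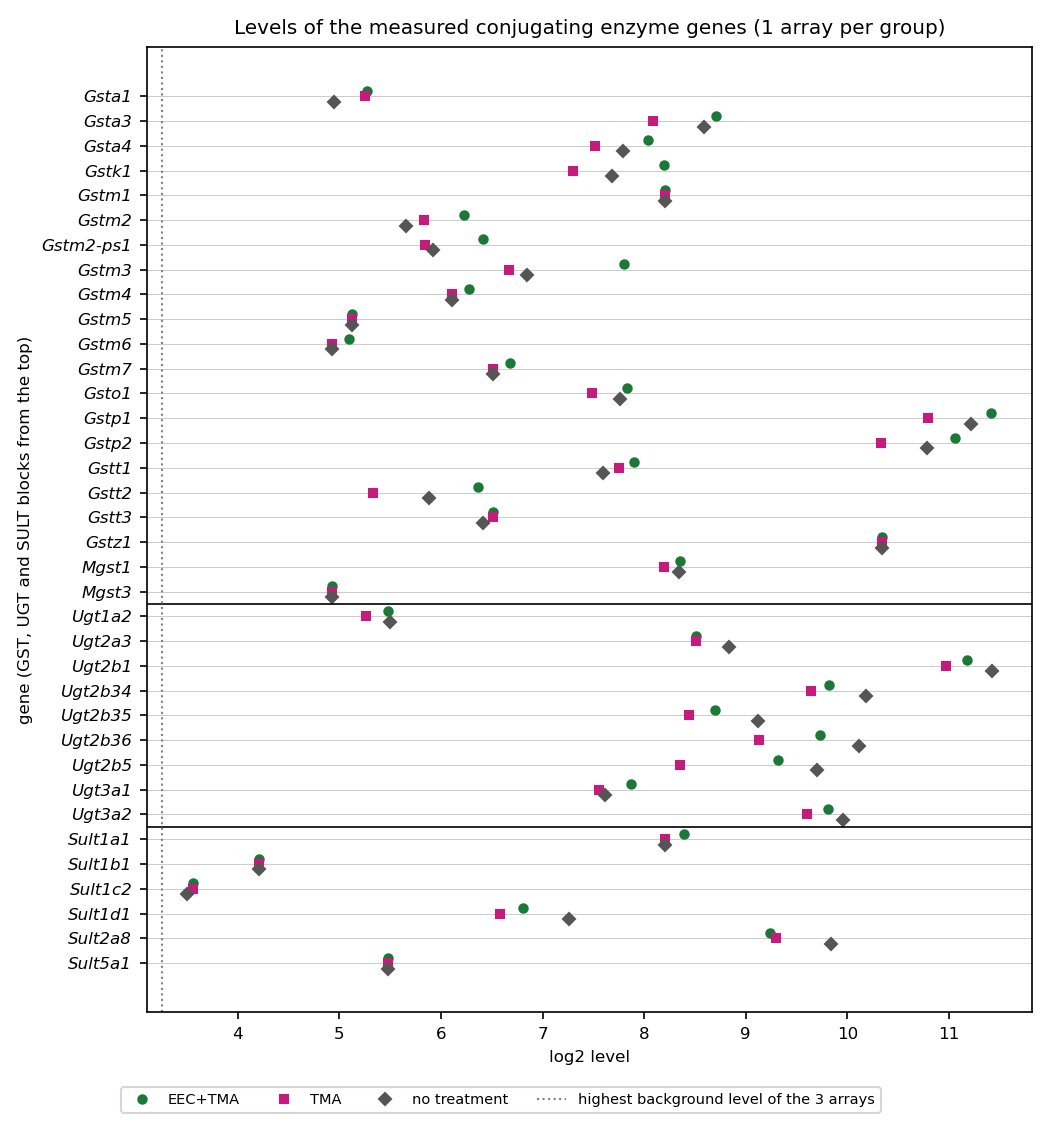
Log2 level (x axis) of the 36 measured genes (y axis; GST, UGT and SULT blocks from the top) on the EEC+TMA, TMA and no treatment arrays, 1 point per array. The UGT2 points of no treatment lie right of both other arrays, Gstm3 stands out on EEC+TMA at 7.80 against 6.84, and 6 genes such as Gstz1 have identical values on all 3 arrays.

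With TMA all 9 measured UGT genes read lower than without treatment (8 of 9 after quantile normalization or loess). The size of the difference was uneven. The genes of the Ugt2b subfamily, which conjugate steroids, bile acids and drugs, had the largest ones, and Ugt3a1 the smallest. Ugt2b5 (chromosome 5, 87124946 to 87140340) read 8.35 on the TMA array and 9.70 on the untreated array, a 2.54-fold lower level. Its neighbour Ugt2b36 (chromosome 5, 87065927 to 87092555) read 9.13 against 10.11, 1.97-fold lower, and Ugt2b35 (chromosome 5, 87000860 to 87013274) 8.44 against 9.12, 1.60-fold lower. Their promoters carry the capitals shown above, but that stretch was taken from Ugt2b5 and Ugt2b36 after their values were seen. The match is therefore no independent result, and Ugt2b37, which also holds the stretch, was below background.

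The other measured UGT2 genes were lower by less than 1.5-fold. Ugt2b34 read 9.64 on the TMA array and 10.19 on the untreated array, and Ugt2b1 10.97 against 11.42. Ugt2a3 read 8.51 against 8.84. The Ugt1a probe set read 5.47 with EEC+TMA, 5.26 with TMA and 5.50 without treatment. Of the UGT3A subfamily, which uses sugars other than glucuronic acid, Ugt3a1 read 7.87, 7.56 and 7.62 and Ugt3a2 9.81, 9.60 and 9.95 in the same order. Ugt2b37, Ugt2b38 and Ugt2a2 stayed below background on every array.

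Of the 36 measured conjugating enzyme genes 4 were 1.5-fold or more apart, all of them lower with TMA: the 3 UGT2B genes named above and Sult1d1. Across all 15711 genes measured on both arrays 8.63% were, 2.25% higher and 6.38% lower. At 2-fold the count was 1 member, Ugt2b5, beside 1.85% of all genes. At any size 5 members were higher, 21 lower and 10 identical, beside 19%, 37.6% and 43.4% of all genes. These counts depended on the scaling, with 18 members higher and 18 lower after quantile normalization and 16 higher and 20 lower after loess. The shift also depended on level. Among the 1180 genes with a mean log2 level of at least 8, 78.4% were lower with TMA and 14.1% higher, 12.2% and 4.92% by 1.5-fold or more, and their median difference was -0.23. The 6 measured UGT2 genes, all in that range, had a median of -0.61, and the 30 other measured members, at any level, one of -0.03. All 15 members in that range, UGT2 genes included, had a median of -0.45, with 12 lower, 3 identical and none higher.

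The UGT2 medians under other scalings of the arrays were -0.66 after median centring, -0.39 after quantile normalization and -0.37 after a loess correction for level, and all 6 genes were lower under each of them. Ugt2b5 and Ugt2b36 stayed past 1.5-fold under all of these scalings, while Ugt2b35 (-0.45 and -0.47) did not after quantile normalization and loess. Poly-A spike-in controls, RNA added before labelling, had a median of 5.76 on the TMA array and 4.95 on the untreated array, and exon control probe sets 6.07 against 6.43. Their part in the lower UGT2 levels was not tested.

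**Figure D2:**
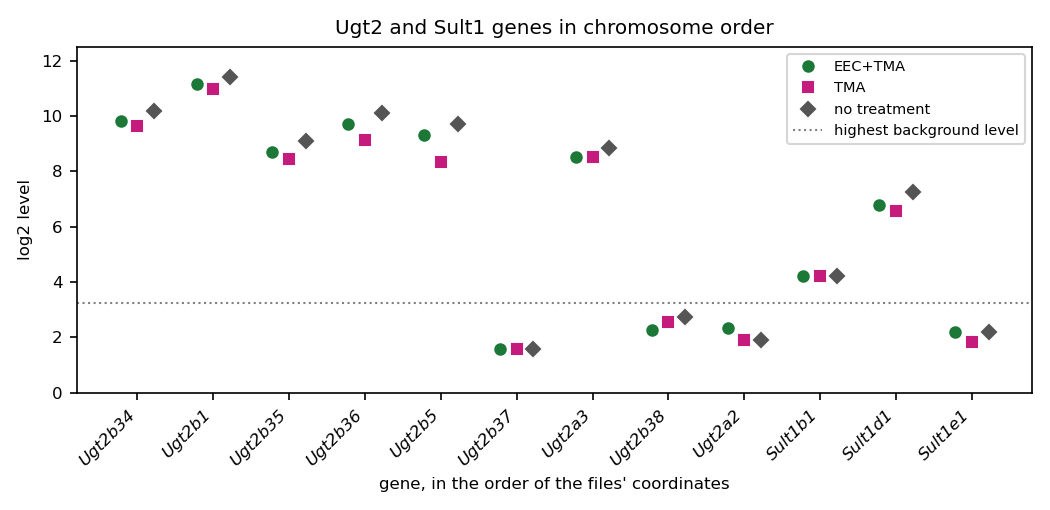
Log2 level (y axis) of the 12 Ugt2 and Sult1 genes that neighbour each other on chromosome 5, in the order of the files' coordinates (x axis), 1 point per array. All 6 Ugt2 genes above background and Sult1d1 are highest on the untreated array, and 4 of the 12 genes lie below background on every array.

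The UGT2 genes share their place in the genome with part of the SULT1 family. The files place 9 Ugt2 genes and then Sult1b1, Sult1d1 and Sult1e1 in 1 stretch of chromosome 5 (86889767 to 87591611) with no gap above 200000 bases between members. Of these 12 genes 8 were measured. With TMA 7 of the 8 were lower than without treatment, beside 37.6% of all genes and 78.4% of those with a mean level of at least 8, the range that holds 6 of the 7. The remaining one, Sult1b1, which sulfates thyroid hormones, had the same value of 4.21 on all 3 arrays. Sult1d1, which sulfates catecholamines in mice, read 6.80 with EEC+TMA, 6.58 with TMA and 7.26 without treatment, so it was 1.61-fold lower with TMA (-0.47 and -0.56 on the log2 scale, short of 1.5-fold, after quantile normalization and loess). Sult1e1, the estrogen sulfotransferase, was below background.

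The other stretch of SULT genes, the Sult2a array on chromosome 7 (13623967 to 14492941), was below background on every array except for 1 gene. Sult2a8 read 9.23 with EEC+TMA, 9.30 with TMA and 9.84 without treatment. The EEC+TMA and TMA values are close, and the untreated one stands above both. The difference was 1.46-fold for TMA and 1.52-fold for EEC+TMA, each against no treatment. None of the 7 female-biased sulfotransferase genes on the array (Sult2a1 to Sult2a6 and Sult3a1) reached background on any array, with levels from 1.35 to 3.14. The male-biased Gstp1 and Gstp2 were well above it on every array.

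Of the remaining measured sulfotransferases, Sult1a1, the phenol sulfotransferase, read 8.39 with EEC+TMA and 8.20 on both other arrays. Sult1c2 lay near background at 3.56, 3.56 and 3.50 in the same order of arrays, and Sult5a1 was identical at 5.48. Thus the measured SULT genes had a median difference of 0 in all 3 comparisons, with Sult1d1 and Sult2a8 standing apart on the lower side against no treatment.

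The GST genes were mixed on the TMA array. Of 21 measured genes 10 were lower than without treatment, 4 higher and 7 identical, the median was 0, and none differed by 1.5-fold. The lowest in this comparison was Gstt2, a theta class enzyme, at 5.33 with TMA and 5.88 without treatment, followed by the alpha class gene Gsta3 at 8.09 against 8.59. Gstp2 read 10.33 against 10.78 and Gstp1, the pi class enzyme, 10.79 against 11.22. Quantile normalization turned the count to 14 higher and 7 lower, and loess to 12 higher and 9 lower, so the family's direction depended on the scaling.

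The second comparison, EEC+TMA against TMA, asks what the extract adds to trimethylamine. On the EEC+TMA array 27 of the 36 measured genes were higher than on the TMA array, 8 were identical and 1, Sult2a8, was lower. After quantile normalization 23 were higher and 12 lower, and after loess 23 were higher and 13 lower. Over all 15749 genes measured on both arrays 36.4% were higher, 44.3% identical and 19.2% lower. By 1.5-fold or more 8 members were higher and none lower, beside 6.8% of all genes in either direction, 4.69% higher and 2.11% lower. At 2-fold 2 members were apart, Gstm3 and Gstt2, beside 0.984% of all genes. Among genes with a mean level of at least 8, 76.5% were higher and 17.5% lower, 14.7% and 4.66% by 1.5-fold or more, with a median of 0.23. The poly-A spike-in controls had a median of 4.98 with EEC+TMA and 5.76 with TMA, and the exon controls 6.49 against 6.07, and their part in this comparison was not tested. Each pair of comparisons here shares an array, so a gene that reads low on the TMA array is low against no treatment and high in EEC+TMA at once.

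Of these 8 genes 6 encode glutathione transferases. Gstm3, a mu class enzyme (chromosome 3, 107963696 to 107969283), read 7.80 with EEC+TMA, 6.66 with TMA and 6.84 without treatment. Here the EEC+TMA array stands apart and the other arrays are near each other, and the difference to TMA was 2.20-fold. Gstt2 (chromosome 10, 75831845 to 75834881) read 6.37, 5.33 and 5.88 in the same order, with the TMA array low and a 2.04-fold difference. Gstk1, the kappa class enzyme of mitochondria and peroxisomes (chromosome 6, 42245935 to 42250441), read 8.20, 7.30 and 7.68, a 1.87-fold difference.

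The pi and alpha classes followed with smaller differences. Gstp2 read 11.06 with EEC+TMA, 10.33 with TMA and 10.78 without treatment, 1.65-fold higher than with TMA, and its probe set is not unique. Gstp1 (chromosome 19, 4035411 to 4037921) read 11.41, 10.79 and 11.22, and Gsta3 (chromosome 1, 21240589 to 21265559) 8.71, 8.09 and 8.59, each 1.53-fold higher than with TMA. In these 3 genes the TMA array was the low one. Gstp1, Gstp2, Gsta3 and Ugt2b36 fell short of 1.5-fold after quantile normalization and after loess, whereas Gstm3, Gstt2, Gstk1 and Ugt2b5 did not.

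The 2 UGT genes among the 8 were Ugt2b5, at 9.32 with EEC+TMA and 8.35 with TMA (1.95-fold higher), and Ugt2b36, at 9.73 against 9.13 (1.52-fold higher). Both remained below their untreated values of 9.70 and 10.11. The other UGT2 genes were closer to their TMA values: Ugt2b35 read 8.70 with EEC+TMA and 8.44 with TMA, Ugt2b34 9.82 against 9.64, Ugt2b1 11.17 against 10.97, and Ugt2a3 8.51 on both. Their direction in this comparison was not stable, since 4 of 6 UGT2 genes were higher after quantile normalization and 3 of 6 after loess.

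**Figure D3:**
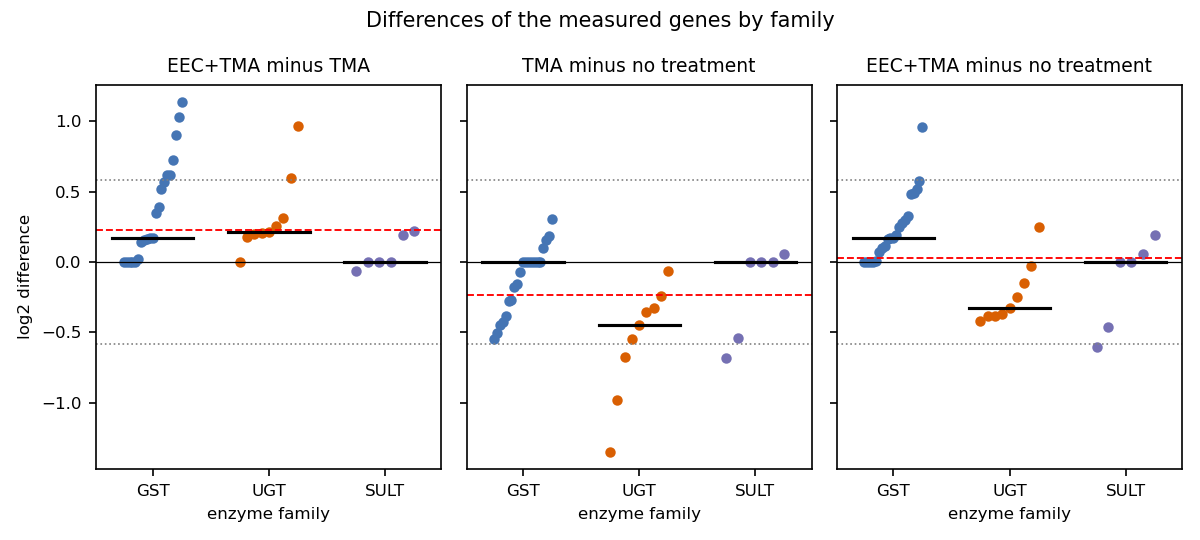
Log2 difference (y axis) of each measured gene by family (x axis) in 3 pairs of arrays, 1 point per gene. Black bars are family medians, dotted grey lines 1.5-fold, and the dashed red line is the median of the 1180 genes with a mean level of at least 8. Against no treatment the EEC+TMA array has GST points at or above 0 and, apart from Ugt3a1, UGT points below 0.

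The third comparison, EEC+TMA against no treatment, does not use the TMA array. Of the 21 measured GST genes 17 were higher on the EEC+TMA array, 4 were identical and none was lower, with a median of 0.17. Of the 9 UGT genes 8 were lower and 1, Ugt3a1 (7.87 against 7.62), was higher, with a median of -0.33. All 6 UGT2 genes were lower, by 0.25 to 0.42, with a median of -0.38.

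Of all 36 measured members 20 were higher, 10 lower and 6 identical. Over all 16129 genes measured on both arrays 25.5% were higher, 19.9% lower and 54.7% identical. Among genes with a mean level of at least 8, 54% were higher and 35.3% lower, 1.44% and 5.42% by 1.5-fold or more, with a median of 0.03. Of the 36 conjugating enzyme genes 2 reached 1.5-fold, Gstm3 (1.94-fold higher) and Sult2a8 (1.52-fold lower), beside 4.05% of all genes, 0.893% higher and 3.16% lower. None reached 2-fold, beside 1.18% of all genes. The UGT2 count and sign were the same under all scalings tried, with medians from -0.38 to -0.32. For GST genes the count of higher ones was 21 after quantile normalization, where 78.8% of all genes were higher, and 18 after loess, where 25.9% were.

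**Figure D4:**
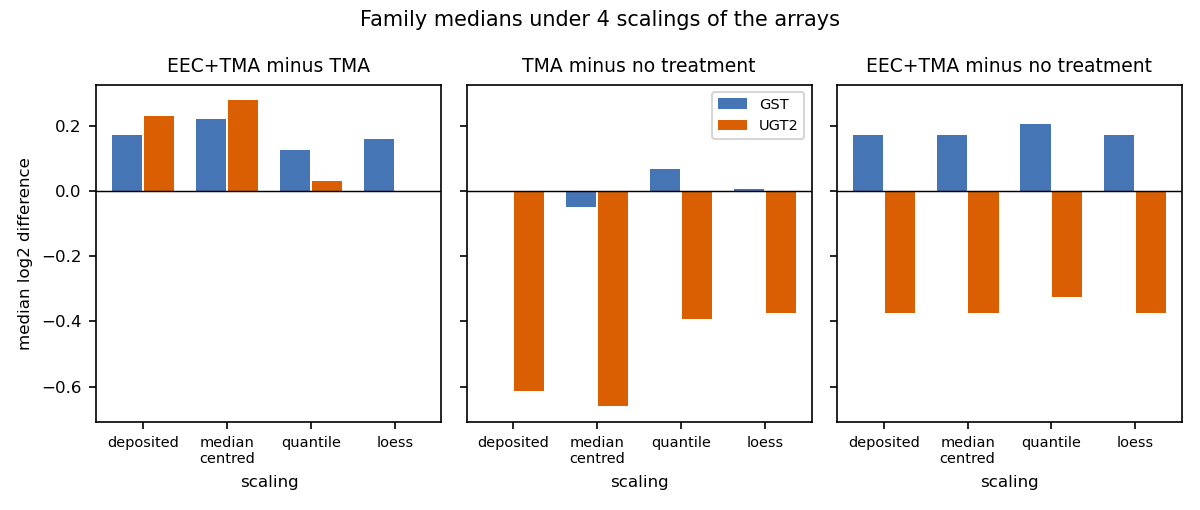
Median log2 difference (y axis) of the 21 measured GST genes and the 6 measured UGT2 genes in 3 pairs of arrays, under the deposited scaling and 3 others (x axis). The UGT2 medians stay below 0 against no treatment in every scaling, while the GST median of TMA minus no treatment changes sign.

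The mu class, whose enzymes conjugate a wide range of electrophiles, had 8 measured genes, of which 6 were higher with EEC+TMA than without treatment and 2 identical. After Gstm3 came Gstm2, at 6.23 against 5.65 (1.49-fold higher), and Gstm2-ps1, at 6.41 against 5.92 (1.41-fold higher). Gstm2-ps1 is named as a pseudogene of Gstm2 on another chromosome, and its probe set is not unique. Gstm4 read 6.27 with EEC+TMA and 6.10 on both other arrays, Gstm6 5.09 against 4.93 and Gstm7 6.68 against 6.51. Gstm1, at 8.20, and Gstm5, at 5.12, had the same value on all 3 arrays.

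**Figure D5:**
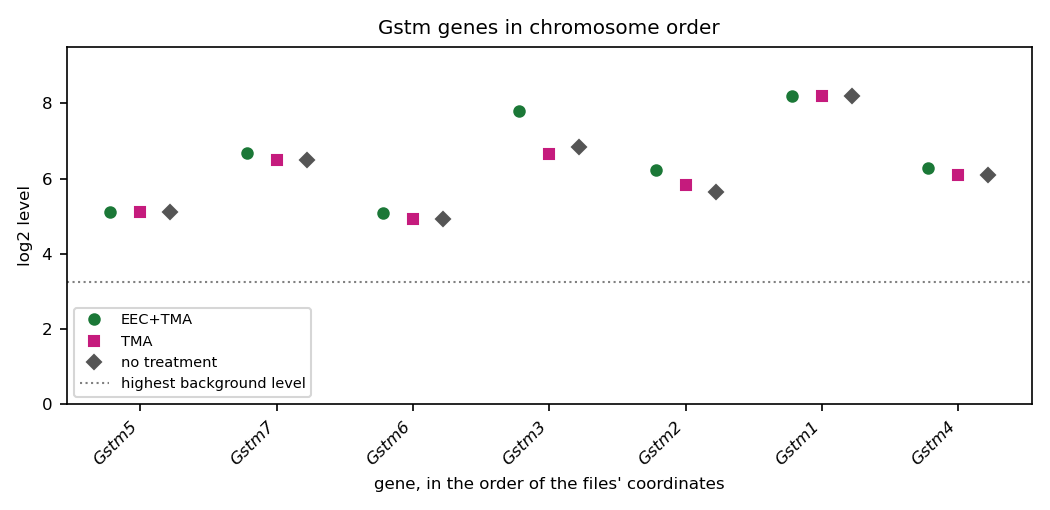
Log2 level (y axis) of the 7 Gstm genes of chromosome 3 in the order of the files' coordinates (x axis), 1 point per array. Gstm3 stands at 7.80 on EEC+TMA against 6.66 on TMA and 6.84 without treatment, and the next widest gap in the row is that of Gstm2, 0.57 between EEC+TMA and no treatment.

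In the other classes no gene was 1.5-fold apart between EEC+TMA and no treatment. Gstk1 was 1.43-fold higher (8.20 against 7.68) and Gstt2 1.40-fold higher (6.37 against 5.88) with EEC+TMA than without treatment. Gstt1, at 7.90 against 7.60, and Gstt3, at 6.51 against 6.41, were theta class genes with a like direction. All 3 measured alpha class genes were higher, Gsta1 at 5.27 against 4.95, Gsta4, which conjugates products of lipid peroxidation, at 8.04 against 7.79, and Gsta3 at 8.71 against 8.59. Gsta1 also read 5.25 on the TMA array, so it was higher with both treatments than without.

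The zeta class gene Gstz1, which also takes part in tyrosine breakdown as maleylacetoacetate isomerase, read 10.34 on all 3 arrays. Gsto1, an omega class enzyme, read 7.84 with EEC+TMA, 7.49 with TMA and 7.76 without treatment. Of the membrane-bound enzymes Mgst1 read 8.35, 8.19 and 8.35 in that order, and Mgst3 was identical at 4.92. In all, 6 of 36 measured members (16.7%) were identical on all 3 arrays, against 36.7% of all genes measured on all 3, at any level. At a mean level of at least 8, 3 of 15 members were identical between TMA and no treatment, beside 89 of 1180 genes. Between EEC+TMA and TMA it was 2 of 15 beside 71 of 1180, and between EEC+TMA and no treatment 2 of 15 beside 127 of 1180. How values came to be identical between arrays was not tested and the processing behind them is not stated, so an identical value does not show an equal level.

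Genes of the NRF2 pathway within the family were listed separately. Of 10 such genes (Gsta1 to Gsta4, Gstm1 to Gstm4, Gstp1 and Gstp2) 9 were measured, Gsta2 being below background. With EEC+TMA 8 of the 9 were higher than without treatment and Gstm1 was identical, with a median of 0.25, and Gstm3 was past 1.5-fold. Of all genes 25.5% were higher in that pair, 54% among those with a mean level of at least 8 and 78.8% after quantile normalization. With TMA 2 were higher than without treatment, 5 lower and 2 identical, with a median of -0.18. The list was chosen with earlier results of these data known and gives no independent support to a direction.

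Promoters of 2 of these genes are shown in full up to the start site, since Gstm3 had the largest GST difference and Gsta3 carries the letters of an antioxidant response element core, to which NRF2 binds. They are from RefSeq (GRCm38.p6), 250 bases before the start site, for Gsta3 chr1:21240335-21240584 (plus strand) and for Gstm3 chr3:107969175-107969424 (minus strand). Capitals mark TGACNNNGC, searched on both strands in the 300 bases around the start site.
Gsta3: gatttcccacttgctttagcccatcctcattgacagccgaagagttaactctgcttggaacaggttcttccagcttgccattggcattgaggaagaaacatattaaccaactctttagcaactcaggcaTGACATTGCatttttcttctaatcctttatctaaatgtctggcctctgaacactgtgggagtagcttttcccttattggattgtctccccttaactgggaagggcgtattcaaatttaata
Gstm3: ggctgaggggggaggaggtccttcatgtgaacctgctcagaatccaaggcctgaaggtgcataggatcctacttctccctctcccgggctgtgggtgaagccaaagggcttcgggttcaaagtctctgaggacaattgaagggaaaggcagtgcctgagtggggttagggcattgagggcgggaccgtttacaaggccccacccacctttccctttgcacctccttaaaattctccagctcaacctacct
The letters begin at -121 in Gsta3 and are not in this window of Gstm3. Among the 48 member genes whose promoter was matched, 4 hold them (Gsta3, Gstm5, Gstm7 and Mgst1), against 12.4% of all 32851 promoters. Here and below members are counted by gene, a hit in any of its promoters sufficing, and the 48 genes have 60 promoters. The percentages are by promoter, so the 2 are not in the same unit. GCGTG, the core bound by the dioxin receptor AHR, is in 9 of the 48 and in 32.4% of all promoters. GTTAAT, part of the site of the hepatocyte factor HNF1, is in 9 of the 48 and in 7.10% of all, and of the measured genes in Gsta3, Sult1a1, Sult1d1, Ugt2a3 and Ugt3a1. None of the 5 measured UGT2B promoters held any of the 3 motifs. In Gstm5 a match of TGACNNNGC (from -42) overlaps one of GCGTG (from -38).

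The supply of the conjugating groups was read from separate lists. Genes of these and the following lists were read in the deposited scaling only. Members with differences just past 1.5-fold in EEC+TMA minus TMA (Gstp1, Gsta3 and Ugt2b36) fell short of it after quantile normalization and loess. For glutathione, 15 of 18 genes were measured. With EEC+TMA 2 of them were higher than with TMA by 1.5-fold. Of all genes 4.69% were, and 14.7% of those with a mean level of at least 8. The 2 genes were the oxoprolinase gene Oplah, at 7.74 against 7.05, and Anpep, an aminopeptidase, at 8.59 against 7.98. Without treatment they read 7.36 and 8.52. Gclc, the catalytic subunit of the rate-limiting step of glutathione synthesis, read 10.14 with EEC+TMA, 9.82 with TMA and 10.14 without treatment, and its modifier subunit Gclm 9.21, 9.20 and 9.60. No gene of the list differed by 1.5-fold from no treatment on either other array.

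For UDP-glucuronate 7 of 7 genes were measured and none differed by 1.5-fold in any pair. With TMA 4 were lower than without treatment and 3 identical, beside 37.6% and 43.4% of all genes. Ugdh, the dehydrogenase that makes UDP-glucuronate, read 9.02 with EEC+TMA, 8.55 with TMA and 8.98 without treatment. Ugp2, which makes its precursor, read 8.21, 8.07 and 8.49. Both were lowest on the TMA array, by less than the Ugt2b5 difference.

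For the sulfate donor PAPS 10 of 11 genes were on the array and measured. Papss2, the main PAPS synthase of liver, read 10.20 with EEC+TMA, 10.30 with TMA and 10.80 without treatment. It was 1.51-fold lower with EEC+TMA than without treatment and the only gene of the 10 past 1.5-fold in any pair. Of all genes 3.16% were lower by 1.5-fold in that pair, and 5.42% of those with a mean level of at least 8. Slc26a1, a sulfate transporter, read 8.35, 7.82 and 8.10.

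Of the ABC pumps that export conjugates all 6 were measured. Abcc2, the canalicular pump for glucuronide and glutathione conjugates, read 8.72 with TMA and 9.82 without treatment, 2.14-fold lower, and 9.53 with EEC+TMA. Abcc3, its basolateral relative, read 9.24 with EEC+TMA and 8.63 with TMA, 1.52-fold higher, and 9.04 without treatment. Apart from Abcc2 none of the pumps differed by 1.5-fold with TMA from no treatment. Of all genes 6.38% were lower by 1.5-fold in that pair, and 12.2% of those with a mean level of at least 8. With EEC+TMA 2 of the 6 pumps were higher than with TMA by 1.5-fold, Abcc2 (1.75-fold) and Abcc3. Of all genes 4.69% were, and 14.7% of those with a mean level of at least 8.

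Other conjugating enzymes outside the family gave 13 measured genes of 16. Glyat, which joins glycine to benzoate, read 6.38 with TMA and 7.29 without treatment (1.87-fold lower) and 6.60 with EEC+TMA (1.61-fold lower than without treatment). No other of the 13 was past 1.5-fold in any pair. Of all genes 6.38% were lower by 1.5-fold with TMA than without treatment, and 3.16% with EEC+TMA. Among those with a mean level of at least 8 the shares were 12.2% and 5.42%. In the list of further detoxification enzymes 12 of 15 were measured. Cbr1, a carbonyl reductase, read 7.04 with EEC+TMA, 5.66 with TMA and 6.25 without treatment, 2.59-fold higher than with TMA and 1.73-fold higher than without treatment. Ephx1, the microsomal epoxide hydrolase, read 8.98 with EEC+TMA against 8.37 with TMA, 1.53-fold higher, and 8.76 without treatment. Thus 2 of the 12 were higher than with TMA by 1.5-fold. Of all genes 4.69% were, and 14.7% of those with a mean level of at least 8. Against no treatment Cbr1 alone was higher by 1.5-fold with EEC+TMA, beside 0.893% of all genes and 1.44% at that level. Ephx2, the soluble epoxide hydrolase, read 10.63 with EEC+TMA and 10.12 with TMA.

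Receptors and factors known to act on these genes gave a list of 11, all measured. Of the 11 measured genes 2 were lower with TMA than without treatment by 1.5-fold. Of all genes 6.38% were, and 12.2% of those with a mean level of at least 8. The 2 genes were Arnt, the partner of AHR (6.50 against 7.28), and Nr1h4, the bile acid receptor FXR (7.23 against 7.93). With EEC+TMA they read 6.92 and 7.73. Hnf4a was identical at 9.87 on all 3 arrays, and Nfe2l2, which encodes NRF2, read 7.11 with EEC+TMA, 6.77 with TMA and 7.01 without treatment. Rxra read 8.98, 8.64 and 8.80. None of the list was 1.5-fold apart in either comparison of EEC+TMA.

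Markers of liver cells were read beside these results. All 10 hepatocyte markers were measured, with a median difference of -0.17 for TMA minus no treatment, 0.35 for EEC+TMA minus TMA and 0.05 for EEC+TMA minus no treatment. With EEC+TMA all 10 were higher than with TMA, beside 76.5% of genes with a mean level of at least 8. The medians of the GST and UGT genes in that pair were 0.17 and 0.21. Against no treatment 9 of the 10 were higher with EEC+TMA and 1 lower, beside 54% and 35.3% of genes with a mean level of at least 8. The only hepatocyte marker 1.5-fold apart in any pair was Apob, a lipoprotein gene, 1.70-fold lower with TMA than without treatment. Of all genes 6.38% were lower by 1.5-fold in that pair, and 12.2% of those with a mean level of at least 8. All 12 pericentral and 12 periportal markers were measured, with medians of -0.18 and -0.31 for TMA minus no treatment, of 0.29 and 0.31 for EEC+TMA minus TMA and of 0 and 0.02 for EEC+TMA minus no treatment. With EEC+TMA 10 of the pericentral and 12 of the periportal markers were higher than with TMA, 2 of each by 1.5-fold or more. Of all genes 36.4% were higher in that pair, 4.69% by 1.5-fold or more. Among those with a mean level of at least 8 the shares were 76.5% and 14.7%. All 10 Kupffer cell markers were higher with EEC+TMA than without treatment, with a median of 0.27. Of all genes 25.5% were, and 78.8% after quantile normalization. With TMA 8 of the 10 Kupffer cell markers were higher than without treatment, 1 lower and 1 identical, with a median of 0.13. Of all genes 19% were higher in that pair, and 49.1% after quantile normalization. The log2 of the summed level of these markers was 9.53 with EEC+TMA, 9.31 with TMA and 9.10 without treatment. Of 8 bile duct markers 4 were measured, and Krt19, Epcam and Cftr were among those below background. Of the 4 measured, Spp1 was 1.71-fold lower with TMA and 1.56-fold lower with EEC+TMA than without treatment. No other was 1.5-fold apart in any pair. By 1.5-fold or more 6.38% and 3.16% of all genes were lower in those pairs. The log2 of the summed level of all 8 bile duct genes, those below background included, lay between 7.13 and 7.22. For endothelial markers, all 8 measured, the log2 of the summed level was 10.31 with EEC+TMA, 9.63 with TMA and 10.15 without treatment. By 1.5-fold or more 2 of the 8 were lower with TMA than without treatment (Stab2 and Kdr). With EEC+TMA 3 were higher than with TMA by that size (Stab2, Kdr and Cdh5). Of all genes 6.38% were lower and 4.69% higher by 1.5-fold in those pairs. Among those with a mean level of at least 8 the shares were 12.2% and 14.7%. For stellate cells, with 8 of 8 markers measured, the log2 of the summed level was 9.20 with EEC+TMA, 8.99 with TMA and 9.24 without treatment. Of the gallbladder and intestine markers 2 of 8 were measured. The log2 of the summed level of all 8, those below background included, was 7.44, 7.48 and 7.44 in the same order. In tissue RNA fewer cells of a type and less RNA per cell cannot be told apart, and the part of these markers in the GST and UGT values was not tested.

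The authors' deposited table for TMA over no treatment lists 198 probe sets with a fold of at least 2.51 in size and holds 1 member, Ugt2b5, at -2.54. Their table for EEC+TMA over TMA lists 68 probe sets and no member. In the authors' deposited table of KEGG maps Ugt2b5 stands in 11 of 62 maps, of which 1, retinol metabolism, had a false discovery rate under 0.05 (7.72e-05, 5 genes).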

How the data were processed

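Liver RNA was measured on 3 arrays, 1 per group, so the number of arrays limits the precision and no test was made. Expression was deposited by the authors as log2 levels, and the series matrix holds the same levels to within 5e-05. How they summarised and normalized the probes is not stated in the sources used here. The authors also deposited lists with a signed fold between arrays, and a KEGG table with p-values, copied as given.

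Members were found by symbol among 33793 main probe sets, and each had 1 probe set. For other symbols the probe set with the highest mean was used. A gene was compared where it was at or above the background (95th percentile of chemosensory probe sets) on both arrays, and counted at 1.5-fold, with 2-fold as the second threshold. Named are all members at least 1.5-fold apart, the 5 highest of each family, the regulated lists and, of other lists, genes past 1.5-fold or the 2 highest; further genes are named for their role. Members and lists were chosen with earlier results of these data known. Of the lists, Glyatl1, Gstp3, Sts and Sult3a2 had no entry. Alternatives were median centring, quantile normalization, loess (span 0.3), other background levels, the mean of probe sets, the series matrix, unique probe sets and 2-fold. They were read for the members and for shares of all genes, not for genes of the other lists. Calculations used Python 3.11.15, numpy 2.4.6, pandas 2.3.3 and statsmodels 0.14.6, and were checked on simulated data.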

Additional observations from a re-analysis of the deposited data

How the results depend on the processing

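Some alternatives left counts of members 1.5-fold apart within 1.5 times those reported and medians of all measured members within 0.1. They were the 99th percentile as background (34 members), the mean of probe sets, the series matrix values and unique probe sets alone (33 members). This does not cover the SULT medians at the 99th percentile, given above. For TMA minus no treatment the count of genes 1.5-fold apart was 4, and became 7 after median centring, 2 after quantile normalization, 2 after loess and 1 at 2-fold. The median of -0.17 became 0.0098 after quantile normalization, -0.0479 after loess and 0 with no background level. For EEC+TMA minus TMA the count of 8 became 4 after quantile normalization, 4 after loess and 2 at 2-fold, and the median of 0.19 became 0.0313 after quantile normalization, 0.0736 after loess and 0.0811 with no background level. For EEC+TMA minus no treatment the count of 2 became 0 at 2-fold, and the median of 0.0659 became 0.0057 with unique probe sets and 0 with no background level. The cause was not tested. Scaling moved the median of all genes by at most 0.05. In the comparison where it passed 1.5-fold, no member changed sign under any alternative. In one where it did not, Gstm3 went to 0.052 after quantile normalization, against -0.18 as reported (TMA minus no treatment). No paired analysis was possible because each group has 1 array. With 1 array per group no difference here can be set against a spread between animals.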

Other observations

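Values recur between different genes on these arrays. Of the 33793 main probe sets, 68.2% share their exact value with another probe set with EEC+TMA, 63.0% with TMA and 67.7% without treatment, with up to 873, 830 and 846 probe sets at 1 value. Of the 56 conjugating enzyme genes 22, 23 and 23 have such a shared value, in the same order. An example is 6.51, the level of Gstt3 on the EEC+TMA and TMA arrays and of Gstm7 on the TMA and untreated arrays.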
